A study of Mus musculus with 6 samples.

Results

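S1pr1, Klf2, Ccr7, Itgae and Cd69 are 5 genes that govern whether a lymphocyte leaves a tissue or stays in it, and they were followed here through the lymphocytes of a mouse melanoma. They were listed by symbol among the 31053 genes of the deposited matrices with earlier results of these data in view. Their levels were read in CD8 T cells, Foxp3 regulatory T cells (Treg), natural killer (NK) cells and B cells. The tumours were grown from YUMMER1.7, a mouse melanoma line, after 600000 cells were injected under the skin of male C57Bl/6 mice aged 6-8 weeks. In the exercise group the mice ran at 12 m/min for 45 min a day on 14 days in a row (libraries exercise 5, 6 and 8), and the other group was sedentary (libraries sedentary 1, 2 and 3); mice were allotted at random once tumours had established. All 6 tumours carried the same injected line, were dissociated whole without a sort and were sequenced with 10x Genomics 3′ version 3 chemistry, which counts each captured transcript once by a unique molecular identifier (UMI). The labels number the libraries but do not say whether each came from 1 mouse, so the p-values below measure the spread between libraries at most. Those from fits without the low-count filter rest on the UMI counts more than on that spread.

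The egress receptor S1pr1 is a G protein-coupled receptor that senses sphingosine-1-phosphate, a lipid abundant in blood and lymph and scarce inside tissues, and it draws lymphocytes out along that gradient. Klf2 is a zinc-finger transcription factor of quiescent lymphocytes that drives transcription of S1pr1. Ccr7 is the receptor for the chemokines Ccl19 and Ccl21 and guides cells into lymphatic vessels and lymph nodes. Cd69, an early activation protein, binds S1pr1 at the cell surface and takes it inside the cell. Itgae encodes the integrin chain CD103, which pairs with the product of Itgb7, binds E-cadherin (Cdh1) and is induced by TGF-beta. Resident memory CD8 T cells of epithelial tissues are known for low Klf2, S1pr1 and Ccr7 and for high Cd69 and, often, Itgae.

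In GRCm38 with the GENCODE M21 annotation, S1pr1 lies on the minus strand of chromosome 3 from 115710433 to 115715072, Cd69 on the minus strand of chromosome 6 from 129267325 to 129275436, and Klf2 on the plus strand of chromosome 8 from 72319033 to 72321656. Both of the remaining genes are on chromosome 11, Itgae on the plus strand from 73090583 to 73147446 and Ccr7 on the minus strand from 99144196 to 99155077. Klf2 was the 1 gene of the 5 with an entry in the RefSeq promoter table (GRCm38.p6), and its promoter is shown because Klf2, the factor upstream of S1pr1, passed the test in 5 of the 6 contrasts between gates below. The stretch below covers the 221 bases of chr8:72318812-72319032 on the plus strand, directly upstream of the annotated start, with capitals marking a match to the MEF2 motif, CTA and TAG with any 4 bases between, which reads the same on both strands.
Klf2 promoter: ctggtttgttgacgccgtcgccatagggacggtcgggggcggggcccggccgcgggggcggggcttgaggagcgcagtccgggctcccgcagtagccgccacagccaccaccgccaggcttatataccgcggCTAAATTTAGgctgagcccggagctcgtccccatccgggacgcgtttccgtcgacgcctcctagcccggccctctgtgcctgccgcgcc
The last base of the match lies 80 bases before the start. MEF2 factors are known activators of Klf2 in endothelial cells. The motifs were searched in the whole RefSeq window of Klf2, from 250 bases before to 50 bases after its start, which runs beyond the stretch printed. Among the 32851 windows of that length, 3.69% held the MEF2 motif on either strand. The KLF motif CACCC was found once in the Klf2 window, on the reverse strand and outside the printed stretch, and in 57.5% of all windows, and the FOXO motif GTAAACA was not found in the Klf2 window and was in 3.65% of all windows.

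The files held 58351 barcodes, of which 51529 cells were kept after limits on genes, UMIs and mitochondrial share and after doublet removal (7127 to 9832 per library). The total was 97426009 to 131778565 UMIs per library, and the median per kept cell was lowest in exercise 5 (5895) and sedentary 2 (6490) and reached 12426 elsewhere. Any pair of libraries shared 16 to 29 barcodes. Free RNA was not corrected for.

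Cells were chosen by the UMIs of marker genes in each cell, none of which is among the 5 genes, and the marker genes are not reported as results. CD8 T cells needed at least 2 UMIs of Cd3d, Cd3e and Cd3g together and 1 of Cd8a or Cd8b1, with none of Cd4 or Foxp3; Treg cells needed Foxp3 and a Cd3 chain, NK cells 2 UMIs of Ncr1 and Klrb1c, and B cells 3 UMIs of B cell markers that included Cd79a, Cd79b and Ms4a1. This gave 2683 CD8 T cells (171 to 910 per library), 221 Treg cells (21 to 81), 581 NK cells (58 to 152) and 69 B cells (4 to 36). No cell was in more than 1 of these gates. Markers that no gate used matched the gates: Ctla4 stood at 589 CPM (its UMIs as a share of the gate's UMIs, scaled to a total of 1000000) in Treg cells and 45.2 CPM in CD8 T cells, the NK gate held 4729 CPM of Gzma against 111 CPM in CD8 T cells, and Pax5 was at 192 CPM in B cells with 0 UMIs in the other 3 gates. Trac, a constant chain of the T cell receptor, was at 557 CPM in CD8 T cells and 691 CPM in Treg cells, and the NK and B gates held 11.1 CPM and 0 UMIs of it.

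Levels below are CPM of a library's cells in 1 gate, and a pooled level sums the 6 libraries and carries its exact 95% Poisson interval, which covers counting error only. Between gates, log2 fold changes come from 1 edgeR quasi-likelihood fit over all gate-by-library sums with the library as a block and Benjamini-Hochberg adjustment (threshold 0.05). Genes too sparse for that fit's filter (S1pr1, Ccr7 and Itgae) are given from the same fit without the filter; there all genes share nearly 1 common spread, so its p-values rest on the counts more than on the libraries, and the number of libraries with the direction is given beside them. Klf2 and Cd69 passed the filter between gates. The 5 genes were also compared between sets of cells by an exact two-sided sign-flip permutation test over the 6 libraries. Its smallest possible p is 0.03125. After adjustment over 35 comparisons no exact permutation p of that test passed the threshold, the smallest being 0.146.

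**Figure D1:**
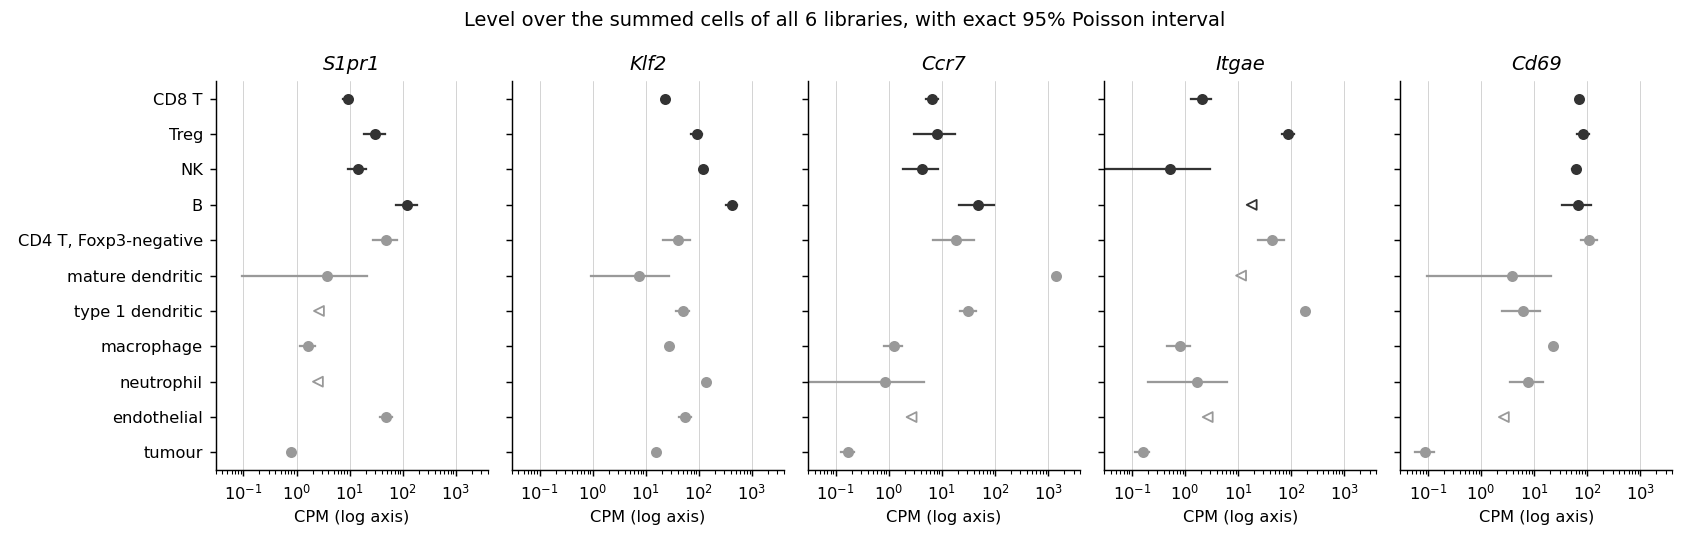
Pooled level (CPM, log axis) of each of the 5 genes in 11 marker gates over the 6 libraries, with exact 95% Poisson intervals; an open triangle marks 0 UMIs, drawn at the limit of 3 counts. Klf2 and S1pr1 were highest in B cells among the 4 lymphocyte gates, Itgae stood highest in type 1 dendritic and Treg cells, and Ccr7 reached 1390 CPM in mature dendritic cells.

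The egress receptor gene S1pr1 was low in CD8 T cells, intermediate in NK and Treg cells and highest in B cells. CD8 T cells held 9.27, 4.85 and 4.68 CPM in exercise 5, 6 and 8 and 8.06, 16.9 and 10.1 CPM in sedentary 1, 2 and 3, from 98 UMIs in all. Treg cells held 32.2, 10.4 and 15.9 CPM in the exercise libraries and 27.0, 29.4 and 80.8 CPM in the sedentary ones, from 22 UMIs. Every library had less S1pr1 in its CD8 T cells than in its Treg cells. The pooled levels were 9.28 CPM (7.54 to 11.3) in CD8 T cells, 30.2 CPM (18.9 to 45.8) in Treg cells, 14.2 CPM (9.38 to 20.7) in NK cells and 120 CPM (73.5 to 186) in B cells. S1pr1 was lower in CD8 T than in Treg cells by edgeR without the filter (log2 fold change -1.56, SE 0.40, adjusted p = 0.00309), a call that was lost without sedentary 1 (-1.53), without sedentary 3 (-1.26) and with stricter gates (-1.01). For CD8 T against NK cells the difference was -0.76 (SE 0.35, edgeR adjusted p = 0.199, lower in 4 of 6 libraries). For Treg against NK cells it was 0.80 (SE 0.45, edgeR adjusted p = 0.402), so NK cells were separated neither from CD8 T nor from Treg cells. Against B cells, S1pr1 was lower in CD8 T cells (-3.20, SE 0.46, edgeR adjusted p = 4.84e-10, lower in 5 of 6 libraries), in NK cells (-2.44, SE 0.48, edgeR adjusted p = 2.03e-05, 5 of 6) and in Treg cells (-1.64, SE 0.49, edgeR adjusted p = 0.0172, 4 of 6). The Treg call was lost without sedentary 2 (-1.43), exercise 5 (-1.09) or exercise 8 (-1.46).

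Klf2, the transcription factor upstream of S1pr1, followed the order CD8 T, Treg, NK, B. It stood at 20.1, 37.8 and 14.0 CPM in CD8 T cells of exercise 5, 6 and 8, and at 22.5, 29.4 and 15.1 CPM in those of sedentary 1, 2 and 3. NK cells held 137, 84.0 and 91.0 CPM in the exercise libraries and 136, 221 and 71.8 CPM in the sedentary libraries. In every library Klf2 was lower in CD8 T cells than in Treg, NK or B cells. Treg cells held 118, 125 and 31.9 CPM in the exercise libraries and 77.9, 132 and 80.8 CPM in the sedentary libraries, and exercise 8 was lowest with 2 UMIs. Pooled over libraries it was at 22.8 CPM (20.04 to 25.9) in CD8 T cells, 90.7 CPM (70.1 to 115) in Treg cells, 120 CPM (105 to 137) in NK cells and 415 CPM (323 to 525) in B cells. Klf2 was lower in CD8 T than in Treg cells (log2 fold change -1.88, SE 0.30, edgeR adjusted p = 4.29e-06), lower in CD8 T than in NK cells (-2.50, SE 0.20, edgeR adjusted p = 4.60e-13) and lower in CD8 T than in B cells (-4.15, SE 0.32, edgeR adjusted p = 2.01e-13). NK and Treg cells both had less than B cells (NK -1.65, SE 0.29, edgeR adjusted p = 3.60e-05; Treg -2.27, SE 0.33, edgeR adjusted p = 1.54e-06), each in 5 of 6 libraries. Treg and NK cells were not separated in the filtered fit (-0.62, SE 0.27, edgeR adjusted p = 0.101).

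Ccr7, the lymph node homing receptor, was sparse in all 4 gates. CD8 T cells held 1.85, 9.69 and 13.4 CPM in the exercise libraries and 5.94, 5.98 and 13.4 CPM in the sedentary libraries, from 69 UMIs. Treg and NK cells gave only 6 and 8 UMIs, and B cells 8, of which exercise 5 supplied 3 and sedentary 2 supplied 4. The pooled levels were 6.54 CPM (5.09 to 8.27) in CD8 T cells, 8.24 CPM (3.02 to 17.9) in Treg cells, 4.22 CPM (1.82 to 8.31) in NK cells and 48.1 CPM (20.8 to 94.8) in B cells. Among the T and NK gates these intervals overlapped, and the fitted differences were -0.03 for CD8 T against Treg cells (SE 0.61, 95% interval -1.23 to 1.18, edgeR adjusted p = 1) and 0.80 for CD8 T against NK cells (SE 0.54, 95% interval -0.26 to 1.85, edgeR adjusted p = 0.466). The fit without the filter called Ccr7 lower in CD8 T than in B cells (-2.41, SE 0.67, edgeR adjusted p = 0.00597). That call was lost without sedentary 2 (-1.62) or exercise 5 (-1.87). Ccr7 was lower in 3 of 6 libraries and higher in 3, so the libraries shared no direction (exact two-sided sign-flip permutation p = 0.3125). For NK against B cells the same fit gave a call at -3.21 (SE 0.79, edgeR adjusted p = 0.00145). There Ccr7 was lower in 3 libraries, higher in 1 and tied in 2 (exact two-sided sign-flip permutation p = 0.25).

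Itgae, the CD103 chain, was highest in Treg cells among the 4 gates and nearly absent from the others. Treg cells held 64.4, 104 and 0 CPM in exercise 5, 6 and 8 and 120, 44.1 and 53.9 CPM in sedentary 1, 2 and 3, from 63 UMIs of which 40 came from sedentary 1. CD8 T cells held 0, 2.91 and 5.35 CPM in the exercise libraries and 4.24, 0.544 and 0 CPM in the sedentary libraries, from 22 UMIs in 2683 cells. In 5 of 6 libraries Itgae was lower in CD8 T than in Treg cells, and in exercise 8 the order was the other way. The pooled ratio of Treg over CD8 T cells was 41.5 (95% interval 25.2 to 70.9), and edgeR without the filter gave -4.56 for CD8 T against Treg cells (SE 0.41, adjusted p = 1.59e-26). NK cells gave 1 UMI of Itgae, so the ratio of Treg over NK cells, 164, had a counting interval of 28.4 to 6586. B cells gave none of 166237 UMIs, which allows up to 18.0 CPM, and Treg cells were at least 4.80-fold higher. Outside the 4 gates, CD4 T cells without Foxp3 held 42.9 CPM of Itgae pooled (23.4 to 71.9), from 14 UMIs. That interval overlapped the one of Treg cells, 86.5 CPM (66.5 to 111).

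Cd69, which takes S1pr1 off the cell surface, had pooled levels between 61.7 and 82.4 CPM in all 4 gates. CD8 T cells held 68.3, 88.2 and 56.8 CPM in the exercise libraries and 45.4, 106 and 75.5 CPM in the sedentary ones. The pooled levels were 70.5 CPM (65.5 to 75.7) in CD8 T cells, 82.4 CPM (62.9 to 106) in Treg cells, 61.7 CPM (51.0 to 73.9) in NK cells and 66.2 CPM (33.0 to 118) in B cells. No pair of gates was separated for Cd69: CD8 T against Treg cells differed by -0.07 (95% interval -0.71 to 0.58, edgeR adjusted p = 0.936) and CD8 T against NK cells by 0.16 (-0.34 to 0.66, edgeR adjusted p = 0.701). Against B cells the intervals were wide, for example -1.16 to 1.35 for CD8 T cells, and the sign turned with another scaling. Cd69 is itself an early response gene, so the sum of 13 immediate early genes is given beside it. That sum ranged from 995 to 1122 CPM in CD8 T cells of the exercise libraries and from 972 to 1246 CPM in the sedentary libraries, from 1051 to 1896 CPM in Treg cells and from 974 to 1173 CPM in NK cells. Its part in the Cd69 level was not tested.

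**Figure D2:**
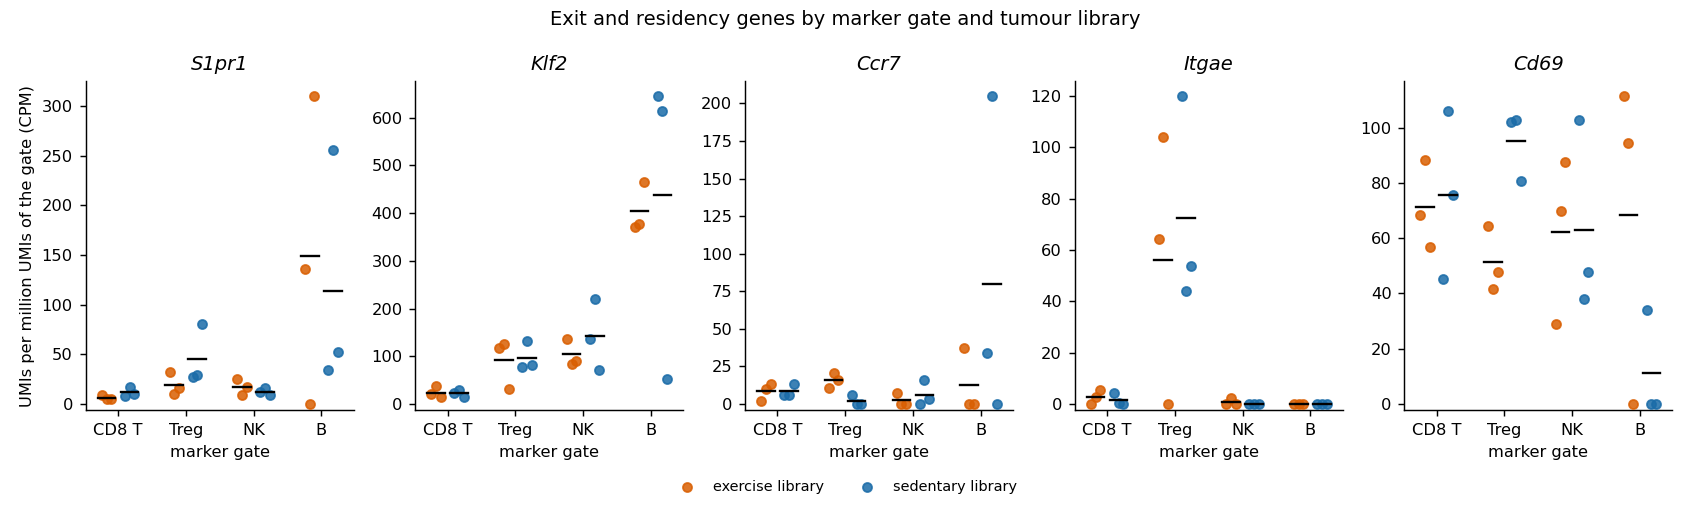
Level (CPM) of each of the 5 genes in CD8 T, Treg, NK and B cells, 1 point per library, exercise (orange) left of sedentary (blue), with a black bar at the group mean of 3 libraries. In every library Klf2 was lower in CD8 T cells than in the other gates, and S1pr1 was lower in CD8 T than in Treg cells. Itgae was high in Treg cells except exercise 8, and the groups overlapped in most gates.

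The background for these counts is broad. In CD8 T against Treg cells, edgeR called 18.9% of 4520 genes (6.95% of 16871 without the filter), and 3 of the 5 genes were called (S1pr1, Klf2 and Itgae), all lower in CD8 T cells. In CD8 T against NK cells 25.2% of genes were called (10.1% without the filter) and 1 of 4 fitted genes, Klf2. For Treg against NK cells the share was 20.4% (7.49% without the filter) and none of 3 fitted genes was called, with Klf2 at an unadjusted p of 0.0254. Against B cells the shares were 20.7% for CD8 T cells (10.1% without the filter) with 3 of 4 fitted genes called, 16% for Treg cells (5.83%) with 2 of 3 called, and 13.8% for NK cells (7.63%) with 3 of 4 called. The calls for CD8 T and NK cells include Ccr7, which was lower than in B cells in only 3 of 6 libraries each. The B cell contrasts carried a shift: the median over all genes was 0.38 to 0.40 with TMM scaling and 0.06 to 0.15 with DESeq2's size factors or DESeq2, so that S1pr1, Klf2 and Ccr7 lay further below B cells under those scalings.

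To see how the exit genes vary among CD8 T cells, those with Tcf7 and no Havcr2 UMIs (107 cells, 6 to 32 per library) were set against those with Havcr2 and no Tcf7 UMIs (912 cells, 61 to 268). Tcf7 is a transcription factor of naive, memory and progenitor-like exhausted T cells, and Havcr2 encodes the inhibitory receptor TIM-3 of terminally exhausted cells. Both genes define the split and are not results. A further 15 cells had both and 1649 had neither.

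S1pr1, Klf2 and Ccr7 were all much higher in the Tcf7 cells. S1pr1 stood at 39.4, 0 and 15.0 CPM in Tcf7 cells of exercise 5, 6 and 8 and at 36.3, 76.9 and 165 CPM in those of sedentary 1, 2 and 3, while Havcr2 cells held at most 1.95 CPM in any library and 4 UMIs in all. Klf2 was at 197, 194 and 105 CPM in Tcf7 cells of the exercise libraries and 66.5, 138 and 274 CPM in those of the sedentary libraries, against 0 to 26.7 CPM in Havcr2 cells. Ccr7 was at 39.4, 97.1 and 90.2 CPM in Tcf7 cells of the exercise libraries and 30.2, 46.2 and 54.9 CPM in those of the sedentary libraries, against 0 to 8.91 CPM in Havcr2 cells. Klf2 and Ccr7 were higher in the Tcf7 cells of all 6 libraries, and S1pr1 in 5 with 1 tie at 0. The log2 fold changes were 5.07 for S1pr1 (SE 0.78, edgeR without the filter, adjusted p = 2.77e-10), 4.85 for Klf2 (SE 0.47, edgeR adjusted p = 9.62e-07) and 4.31 for Ccr7 (SE 0.61, edgeR without the filter, adjusted p = 4.79e-10). In this contrast edgeR called 11.1% of 2898 genes, and 5.26% of 14993 without the filter.

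Of the residency genes, Cd69 was higher in the Tcf7 cells too, at 106 CPM pooled against 52.9 CPM in Havcr2 cells (ratio 1.99, 95% interval 1.45 to 2.70, higher in 5 of 6 libraries), with a log2 fold change of 1.13 (SE 0.33, edgeR adjusted p = 0.0323). That call was lost without exercise 6, sedentary 1, sedentary 2 or sedentary 3 in turn, without the low-count filter (0.72), without doublet removal (0.99) and with DESeq2 (1.04). The excess came from the sedentary libraries, where pooled Tcf7 cells held 140 CPM of Cd69 (44 UMIs) and Havcr2 cells 50.2 CPM. In the exercise libraries the pooled order was the other way, at 47.7 CPM (9 UMIs) in Tcf7 cells and 55.4 CPM in Havcr2 cells. Itgae gave 0 of the Tcf7 cells' UMIs, which allows up to 5.97 CPM, and 10 UMIs (2.25 CPM) in Havcr2 cells, both at or under that limit. Within the CD8 T gate, the 790 cells with dividing-cell genes held 3.11 CPM of S1pr1 and 8.75 CPM of Klf2, the 241 cells with granzymes C to F held 1.58 and 10.3 CPM, and the cells with neither Tcf7 nor Havcr2 held 12.1 and 25.9 CPM.

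**Figure D3:**
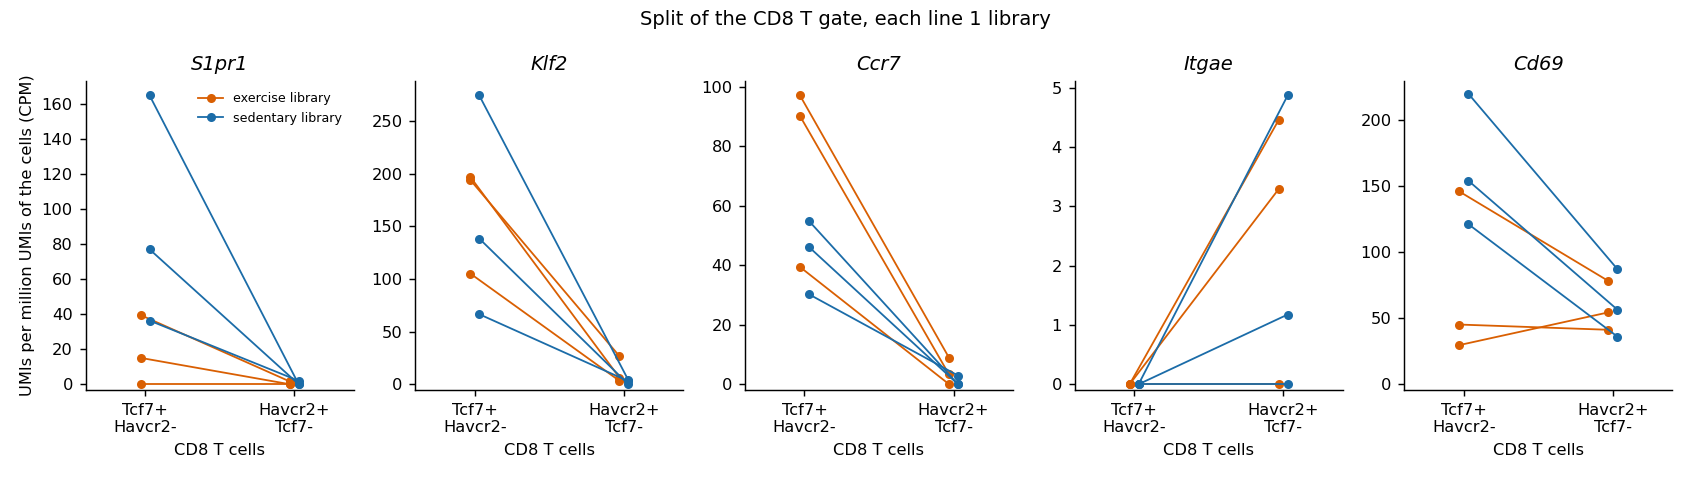
Level (CPM) of each gene in CD8 T cells with Tcf7 and without Havcr2 UMIs (left) and with Havcr2 and without Tcf7 UMIs (right), each line 1 library, exercise orange and sedentary blue. S1pr1, Klf2 and Ccr7 fall to near 0 on the right in nearly every library, whereas Cd69 stays between 36.0 and 87.0 CPM there.

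S1pr1 and Klf2 were also counted together in single CD8 T cells. Klf2 UMIs were found in 36 of the 82 CD8 T cells with an S1pr1 UMI (43.9%, exact 95% interval 33.0 to 55.3) and in 3.65% of the 2601 cells without one. The intervals of these shares pool the cells of the 6 libraries, so they cover counting error only and not the spread between libraries. The median was 2784.5 UMIs in the cells with S1pr1 and 3079 UMIs in those without. For Cd69 the shares were 23.2% (14.6 to 33.8) of the cells with S1pr1 and 17.4% (15.9 to 18.9) of those without, and these intervals overlapped. Thinned to 1000 UMIs per cell, an S1pr1 UMI was seen in 1.37% of 2482 CD8 T cells (unthinned, in 82 of 2683 cells), against 0.108% of cells in the tumour gate, whose cells were deeper (median 21871 UMIs against 3253.5 UMIs). For Cd69 the thinned share was 6.97% in CD8 T cells and 0 of 12073 cells in the tumour gate, which allows up to 0.0248%, and for Itgae it was 11.1% in Treg cells, 0.322% in CD8 T cells and 0.0166% in the tumour gate. The tumour gate itself held Klf2 at 15.6 CPM, so it gives no background for Klf2. For the other genes, thinning removes more of any free RNA from a deeper cell. The thinned shares of the tumour gate, here and below, therefore set no level of free RNA for the lymphocytes.

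Genes of the same pathways were read from lists, of which the exit list has 15 genes, the residency list 20, a list of ligands and ligand-making enzymes 14 and the immediate early list 13. In CD8 T against Treg cells, 6 of 11 tested exit genes were lower in CD8 T cells and none was higher (median log2 fold change -1.35, against 0.00 over all 4520 genes). Of all these genes 8.61% were called higher and 10.3% lower in CD8 T cells. The exit genes called are described first. The lower exit genes included Klrg1, a receptor of differentiated effector cells (-6.73, SE 0.27, edgeR adjusted p = 1.63e-20), Il7r, the interleukin 7 receptor (-2.15, SE 0.19, edgeR adjusted p = 4.48e-11), and Klf2. The residency list split: of 14 tested genes 7 were higher and 4 lower in CD8 T cells, with a median of 0.38. With DESeq2 6 were higher and 4 lower. Higher were the chemokine gene Xcl1 (1210 UMIs against none in Treg cells, at least 27.8-fold), Nr4a2, an orphan nuclear receptor induced by antigen receptor signals (4.09), Cxcr6, a chemokine receptor of tissue T cells (3.72), and Itga1, the CD49a integrin chain (2.47). Lower were Itgb7, the partner chain of CD103 (-3.49), Tgfbr1 (-1.67), the transcription factor Prdm1 (-1.53) and Rgs1, a brake on G protein-coupled receptor signalling (-0.83). Itgb7, like Itgae, was thus higher in Treg cells.

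CD8 T against NK cells gave 1 higher and 6 lower of 11 exit genes (median -0.82, against -0.01 over all genes). Over all genes 12.8% were called higher and 12.4% lower in CD8 T cells. Il7r was higher (3.02), and the lower genes included Tcf7 (-2.90), Klrg1 (-2.87) and Klf2. Of 14 residency genes 4 were higher, among them Cxcr6 (5.36) and Nr4a2 (3.48), and 6 were lower, among them Xcl1 (-2.30), Itgb7 (-2.16) and Ahr, the aryl hydrocarbon receptor (-2.10). With DESeq2 the counts were 1 higher and 5 lower for exit genes and 3 higher and 5 lower for residency genes. Treg against NK cells gave 3 higher and 2 lower exit genes and 4 higher and 5 lower residency genes, with Il7r (5.17) and Prdm1 (3.11) higher and Tcf7 (-4.66) and Itga1 (-3.33) lower in Treg cells. In that contrast 10.5% of all genes were called higher and 9.91% lower in Treg cells. Xcl1 had 0 UMIs in Treg cells and 991 in NK cells, at least 127-fold lower in Treg cells. Of the ligand list, 3 genes could be tested between gates, and the only calls were Sgpl1, the lyase that breaks down sphingosine-1-phosphate (-1.11), and Tgfb1 (-0.49), both lower in CD8 T than in NK cells. The Tgfb1 call was lost with DESeq2.

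Against B cells, whose sums were small, the exit list gave 3 higher and 4 lower genes in CD8 T cells, 4 and 2 in Treg cells, and 3 and 1 in NK cells. With DESeq2's size factors and with DESeq2 these counts were 1 and 4, 2 and 2, and 1 and 2, and Gnai2 and Arrb2 were no longer called in any of the 3 contrasts. The residency list gave 7 higher and 1 lower in CD8 T cells, 3 and 0 in Treg cells, and 6 and 0 in NK cells, of which Itga1 in CD8 T cells and Prdm1 in Treg cells were lost under both other scalings and Bhlhe40 in NK cells with DESeq2. With TMM scaling, the shares called over all genes were 16.1% higher and 4.6% lower in CD8 T cells. They were 13.2% and 2.85% in Treg cells, and 11.3% and 2.5% in NK cells. Cxcr6 was at least 24.5-fold higher in CD8 T cells, and B cells had none of its UMIs. With genes at 0 set to such bounds the exit median for CD8 T against B cells was -0.95, and 0.58 as fitted, so it has no stable sign. Of 9 tested immediate early genes, 4 were called in CD8 T against Treg cells, where 18.9% of all genes were, 3 in Treg against NK cells (20.4% of all genes) and 2 in CD8 T against NK cells (25.2%). Zfp36 (-2.24), Dusp1 (-1.87) and Junb (-1.26) were lower and Btg2 (0.74) higher in CD8 T than in Treg cells, with the Btg2 call lost under both other scalings.

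Between the CD8 T subsets, 3 of 5 tested exit genes were higher in Tcf7 cells, among them Klf2 (4.85) and Il7r (2.24), and none lower, with a median of 2.24 against -0.01 over all genes. Of all 2898 genes, 6.11% were called higher and 5.04% lower in Tcf7 cells. Of 8 residency genes, Cd69 was higher and Cxcr6 (-1.29), Rgs1 (-1.29) and Nr4a2 (-1.27) were lower. The Cd69 and Nr4a2 calls were lost with DESeq2. Of 7 immediate early genes, Jun was higher (1.65, edgeR adjusted p = 0.00263) and none was lower.

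**Figure D4:**
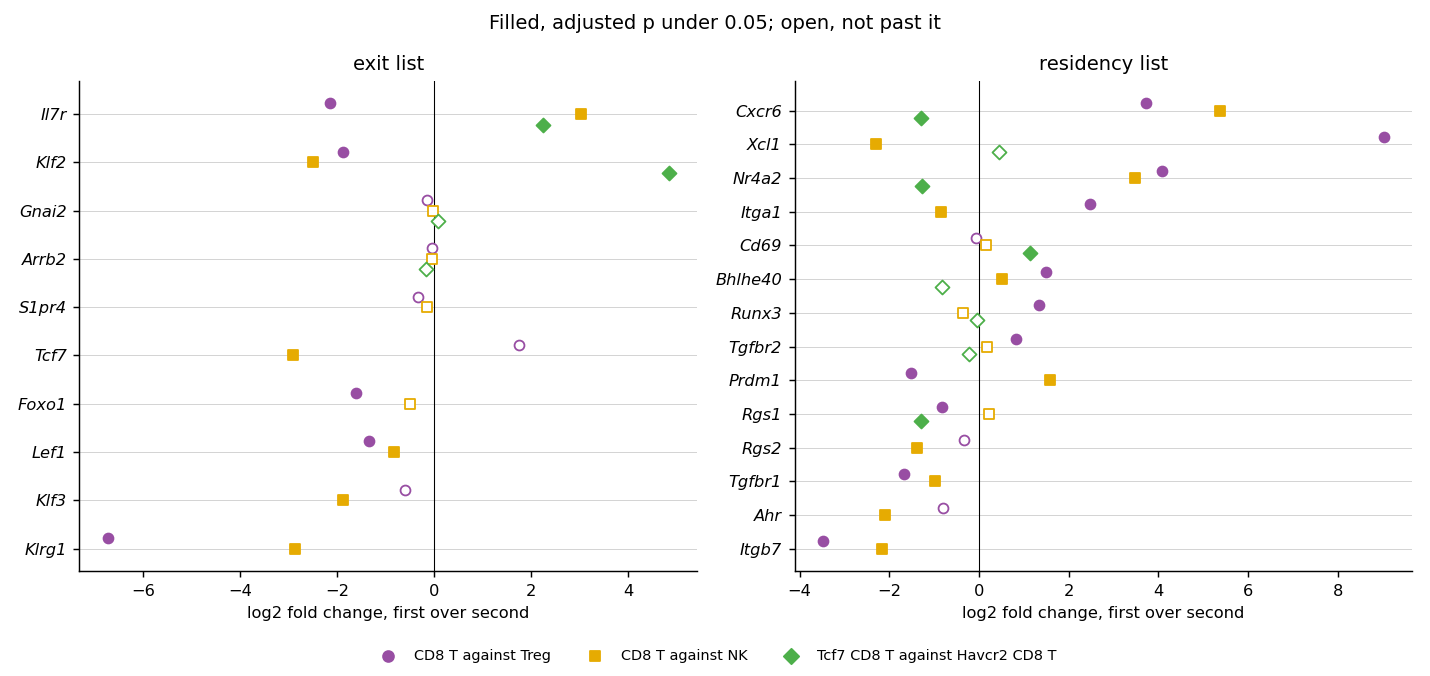
Log2 fold change of the exit and residency list genes in CD8 T against Treg cells (purple circles), CD8 T against NK cells (yellow squares) and Tcf7 against Havcr2 CD8 T cells (green diamonds), filled where the edgeR adjusted p was under 0.05; 1 exit gene is not drawn. Exit genes past the threshold lie left of 0 in both gate contrasts, except Il7r against NK cells, and right of 0 for Tcf7 cells, and the residency genes lie on both sides.

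The 5 genes were also transcribed outside the lymphocyte gates, and cells in no gate, which can include lymphocytes below the marker limits, held 41.0% to 55.4% of each gene's UMIs. Of 1014 S1pr1 UMIs in all kept cells, CD8 T cells supplied 9.66%, endothelial cells 5.42%, the tumour gate 22.6% and cells in no gate 50.2%. S1pr1 was at 49.2 CPM in endothelial cells, where it acts in vessel integrity, and at 0.797 CPM in the tumour gate. In endothelial cells it stood at 163, 59.0 and 101 CPM in exercise 5, 6 and 8 and at 17.9, 31.9 and 45.9 CPM in sedentary 1, 2 and 3. The median UMIs per endothelial cell were 5170, 9400 and 6050 in exercise 5, 6 and 8 and 33263, 38379 and 17056.5 in sedentary 1, 2 and 3. The part of depth in the S1pr1 level was not tested. The gate holds 56 cells and 55 UMIs of S1pr1, and no fit was made for it. The share of its cells with S1pr1 averaged 24.8% in exercise and 7.5% in sedentary libraries at 1000 UMIs per cell (exact two-sided permutation p = 0.1, the smallest possible; unthinned 44.97% in exercise and 26.5% in sedentary libraries), and 14.8% in exercise and 20% in sedentary libraries at 2000 UMIs (exact permutation p = 0.8). Type 1 dendritic cells and neutrophils gave no S1pr1 UMI. The 126 CD4 T cells without Foxp3 held 86.9, 30.9 and 0 CPM of S1pr1 in exercise 5, 6 and 8 and 34.4, 0 and 0 CPM in sedentary 1, 2 and 3, and 13 of their 16 UMIs came from exercise 5. Klf2 reached 138 CPM in neutrophils and 55.5 CPM in endothelial cells. Mature dendritic cells, which use Ccr7 to reach lymph nodes, held 1390 CPM of Ccr7, from 366 UMIs in only 38 cells, none of them in sedentary 2. Type 1 dendritic cells, which also carry CD103, held 184 CPM of Itgae and 32.9% of its 636 UMIs. CD8 T cells supplied 25.3% and macrophages 17.8% of the 2938 Cd69 UMIs.

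The study's comparison is exercise against sedentary, and none of the 5 genes passed the test in CD8 T, Treg, NK or B cells, the gates in which it was fitted. In CD8 T cells S1pr1 averaged 6.27 ± 2.60 CPM in the exercise libraries and 11.7 ± 4.61 CPM in the sedentary libraries (SD, n = 3 each). Exercise 5, at 9.27 CPM, lay above sedentary 1, at 8.06 CPM, so the groups overlapped. At 1000 UMIs per cell an S1pr1 UMI was seen in 0.875% of CD8 T cells in exercise and 2.08% in sedentary libraries (means of 3; exact two-sided permutation p = 0.1, the smallest possible), and at 2000 UMIs in 1.10% in exercise and 2.56% in sedentary libraries (exact permutation p = 0.3), against 0.108% in the tumour gate at 1000 UMIs. The log2 fold change was -0.79 (SE 0.39, 95% interval -1.63 to 0.06, unadjusted p = 0.0652, edgeR adjusted p = 1.00). Klf2 averaged 24.0 ± 12.4 CPM in exercise and 22.3 ± 7.14 CPM in sedentary libraries, Ccr7 8.31 ± 5.88 CPM in exercise and 8.45 ± 4.31 CPM in sedentary libraries, and Cd69 71.1 ± 15.9 CPM in exercise and 75.7 ± 30.4 CPM in sedentary libraries. Their log2 fold changes were -0.11 for Klf2 (95% interval -0.78 to 0.56), -0.07 for Ccr7 (-1.36 to 1.22) and -0.13 for Cd69 (-0.70 to 0.44). Itgae, with 11 UMIs in each group, had an interval of -1.21 to 1.20. Of the 5 genes none was called in CD8 T cells, where edgeR called 0.0111% of 9017 genes (0.265% of 16203 without the filter).

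In Treg cells Cd69 was at 64.4, 41.6 and 47.8 CPM in the exercise libraries and at 102, 103 and 80.8 CPM in the sedentary libraries. These levels rest on 13 UMIs in exercise and 47 in sedentary libraries. The log2 fold change was -1.01 (SE 0.52, 95% interval from -2.02 to just under 0, unadjusted p = 0.0499, edgeR without the filter, adjusted p = 0.866). Fits without the filter share nearly 1 spread over all genes, so this p and interval rest on the counts more than on the libraries. The same holds for every other gene fitted in Treg and B cells, for Itgae in CD8 T cells and for S1pr1 in NK cells. At 1000 UMIs per cell, 4.13% of Treg cells had Cd69 in exercise and 13.3% in sedentary libraries (means of 3), with an exact two-sided permutation p of 0.1, the smallest that 3 against 3 libraries allow; at 2000 UMIs the shares were 5.80% in exercise and 19.5% in sedentary libraries (exact permutation p = 0.3). The share at 1000 UMIs compares with 0 of 12073 cells in the tumour gate. None of the 4 genes fitted in Treg cells was called, against 0% of 1367 genes with the filter (48 at an unadjusted p under 0.05) and 0.0876% of 12558 without it. S1pr1 in Treg cells differed by -1.03 (95% interval -2.60 to 0.54), Klf2 by 0.00 (-0.81 to 0.81) and Itgae by -0.62 (-1.59 to 0.34). Ccr7 there had 4 UMIs in exercise and 2 in sedentary libraries and was not fitted.

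In NK cells Klf2 averaged 104 ± 28.9 CPM in exercise and 143 ± 74.7 CPM in sedentary libraries, with sedentary 2 highest at 221 CPM and sedentary 3 lowest at 71.8 CPM. The log2 fold change was -0.51 (SE 0.32, 95% interval -1.20 to 0.18, unadjusted p = 0.136, edgeR adjusted p = 0.999). Cd69 averaged 62.2 ± 30.2 CPM in exercise and 62.9 ± 35.0 CPM in sedentary NK cells (0.04, 95% interval -0.82 to 0.90), and S1pr1 differed by 0.37 (-0.83 to 1.56). None of the 3 fitted genes was called in NK cells, against 0% of 4137 genes (163 at an unadjusted p under 0.05) and 0.117% of 13638 without the filter. B cells held 371, 377 and 464 CPM of Klf2 in exercise and 645, 614 and 51.8 CPM in sedentary libraries, so sedentary 3 lay below all the others. In B cells S1pr1 differed by 0.55 (95% interval -1.27 to 2.37) and Klf2 by -0.12 (-1.60 to 1.35), and neither was called, against 0% of 187 genes (10 at an unadjusted p under 0.05) and 0.207% of 9666 without the filter. Markers of other cell types (Lyz2, Apoe, Col3a1, S100a8 and Hba-a1 summed) stood at 198 to 619 CPM in exercise and 256 to 2716 CPM in sedentary B cell sums, and their part in the B cell values was not tested. The effect of exercise on a gene in Treg, NK or B cells minus that in CD8 T cells was not called for any of the 5, the smallest unadjusted p being 0.0375 for Cd69 in B cells (3.22, edgeR adjusted p = 0.575) and 0.0405 for S1pr1 in NK cells (1.45, edgeR without the filter, adjusted p = 1). Over all genes 0% of 4520 were called for Treg cells (168 at an unadjusted p under 0.05) and for NK cells (147), and 0.0664% for B cells; without the filter the shares were 0.0593% for Treg, 0.0356% for NK and 0.107% for B cells.

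Among Tcf7 CD8 T cells, S1pr1 averaged 18.1 ± 19.9 CPM in exercise and 92.6 ± 65.6 CPM in sedentary libraries, from 5 UMIs in exercise and 19 in sedentary libraries. Exercise 5, at 39.4 CPM, lay above sedentary 1, at 36.3 CPM. Sedentary 3, the highest at 165 CPM, rests on 6 cells and 3 UMIs. Klf2 averaged 165 ± 52.2 CPM in exercise and 160 ± 106 CPM in sedentary Tcf7 cells. Ccr7 was higher in exercise, at 75.6 ± 31.5 against 43.8 ± 12.5 CPM, and Cd69 lower, at 73.4 ± 63.0 against 165 ± 50.2 CPM. Itgae gave no UMI in these cells. At 1000 UMIs per cell S1pr1 was seen in 1.04% of the exercise and 21.0% of the sedentary Tcf7 cells (means of 3 libraries; unthinned 6.55% in exercise and 31.2% in sedentary libraries), with an exact two-sided permutation p of 0.1, again the smallest possible, against 0.108% in the tumour gate. The dividing-cell markers Mki67 and Top2a went the opposite way to S1pr1: their sum was 394 to 1213 CPM in exercise and 69.2 to 181 CPM in sedentary Tcf7 cells. The sum of the 5 markers of other cell types named above for B cells was lower in exercise, like S1pr1. It stood at 197, 48.5 and 195 CPM in exercise 5, 6 and 8 and 399, 454 and 220 CPM in sedentary 1, 2 and 3. The part of these sums in the S1pr1 level was not tested. Tcf7 cells were 3.30 ± 0.48% of CD8 T cells in exercise and 4.55 ± 0.92% in sedentary libraries (SD, n = 3 each, exact permutation p = 0.3), and Havcr2 cells 33.4 ± 3.49% in exercise and 36.6 ± 0.84% in sedentary libraries (exact permutation p = 0.2).

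Summed over all kept cells of a tumour, none of the 5 genes was called, against 0% of 15482 genes by edgeR (413 at an unadjusted p under 0.05) and 0.116% by DESeq2. In such sums fewer cells of a type and less RNA per cell cannot be told apart. The log2 fold changes were -0.02 for S1pr1, -0.04 for Klf2, 0.46 for Ccr7 (95% interval -0.98 to 1.89), 0.08 for Itgae and -0.14 for Cd69. No tested gene of the 4 lists was called for exercise in any gate or in the whole tumour, but few could be tested in the small gates. Of the exit, residency, ligand and immediate early lists, 13, 15, 4 and 9 genes were tested in CD8 T cells and 7, 10, 2 and 7 in NK cells. In Treg cells the numbers were 4, 3, 1 and 3. In B cells only 1 immediate early gene was tested and none of the other lists. In CD8 T cells the genes with the lowest unadjusted p of their lists included Ier2 (-0.46, SE 0.15) and Xcl1 (0.94, SE 0.31), each with an edgeR adjusted p = 1.00. In the whole tumour they included Spns2, the sphingosine-1-phosphate exporter (1.00, SE 0.26), Lef1, a transcription factor close to Tcf7 (-0.51, SE 0.14), and Prdm1 (-0.81, SE 0.23), each with an edgeR adjusted p = 1.00.

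**Figure D5:**
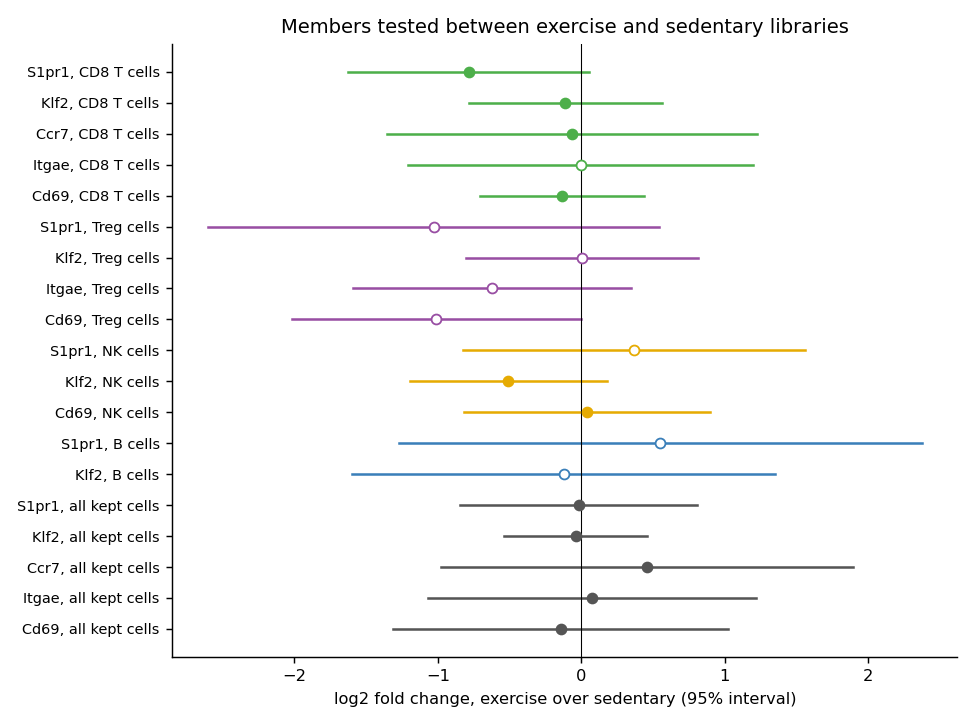
Log2 fold change of exercise against sedentary for each gene by gate and in all kept cells, with 95% intervals; filled points are from the filtered edgeR fit and open points from the fit without the low-count filter. Every interval crosses 0 except that of Cd69 in Treg cells, which ends just under 0.

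Over the 20 gate-by-library sums with at least 10 cells, the genes whose levels ran most like each of the 5 were found by Pearson's r of log2(CPM + 10) among 5789 genes. These values are descriptions over points that share libraries and gates, so they carry no p. Klf2 ran with Foxp1 (0.86), Pde4b (0.85) and Klf3 (0.84), and S1pr1 with Serp1 (0.79), Trim5 (0.79) and Ighm (0.76). Ccr7 ran with Myo5a (0.84), Lman1 (0.82) and 4930523C07Rik (0.77). Itgae was matched most closely, by Il10 (0.97), Slc15a3 (0.95) and Ebi3 (0.94), and Cd69 least, by Hmces (0.65), Cdc25b (0.64) and Hilpda (0.63).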

How the data were processed

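Raw UMI counts per gene and barcode were deposited by the authors for 6 libraries; per the submitters' processing notes they come from Cell Ranger 6.1.2 on mm10, while the file headers name software version 3.1.0. Barcodes under 300 genes or 500 UMIs, or over 20% mitochondrial UMIs, were dropped, and doublets were removed with Scrublet (scanpy 1.11.5; 0.946% to 2.42% per library). Gates used marker UMIs with no clustering, and the libraries, not the cells, were the replicates. Counts were summed per gate and library and tested with edgeR 4.0.16 (quasi-likelihood, TMM scaling, filterByExpr, Benjamini-Hochberg threshold 0.05). A gene under the filter was taken from the fit without it if it had at least 15 UMIs, with at least 4 on each side, a choice made after seeing the counts. For the 5 genes, SEs and intervals were not allowed below the counting error of the UMIs compared. Their p-values were left as fitted, so an SE and its p need not match. The fits were tested on simulated data. DESeq2 1.42.0, other scalings, stricter gates, left-out libraries and thinning were alternatives. Shares were compared by exact permutation. The genes named from a list are those past the threshold with the 4 largest changes each way, or the 2 lowest p-values for exercise. The 5 genes, the lists and the markers were chosen with earlier results of these data known. Some listed or marker genes entered the counts but are not reported here.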

Additional observations from a re-analysis of the deposited data

How the results depend on the processing

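No paired analysis was possible because exercise libraries are numbered 5, 6 and 8 and sedentary ones 1, 2 and 3; between gates the fit without the replicate block changed no call and turned only Ccr7 in CD8 T against Treg cells (0.084). All values are log2 fold changes unless named, and the cause of a change was not tested. With DESeq2, Cd69 was -0.018 for CD8 T and -0.038 for Treg against B cells, 0.020 for CD8 T against Treg cells and 1.04 (call lost) for Tcf7 against Havcr2 cells. For exercise, DESeq2 gave Itgae 0.51 in CD8 T cells, Klf2 -0.018 in Treg cells and Cd69 -0.0032 in NK cells. Its counts of called genes were 414 for NK against B cells, 1 for exercise in NK cells and 18 in the whole tumour. With DESeq2's size factors in edgeR, Cd69 was -0.23 for CD8 T and -0.074 for Treg against B cells. Without the low-count filter, edgeR called 1705 genes for CD8 T against B cells, against 934 with it, 1710 for CD8 T against NK cells, against 1139, 1288 for NK against B cells, against 625, and 788 between the CD8 T subsets, against 323. For exercise it then called 43 genes in CD8 T cells, 11 in Treg, 16 in NK and 20 in B cells. Without the filter Cd69 was 0.11 for CD8 T against Treg cells, 0.33 for NK against B cells and 0.72 for the CD8 T subsets (call lost), and Klf2 was called for Treg against NK cells (-0.76). Without doublet removal Cd69 was 0.99 for the subsets (call lost), exercise gave Ccr7 0.019 in CD8 T cells and Cd69 -0.011 in NK cells, and the calls were 0 and 1 genes. With stricter gates Cd69 was -0.53 for CD8 T and -0.67 for Treg against B cells and 0.14 for CD8 T against Treg cells, where Ccr7 was 1.28, S1pr1 -1.01 (call lost) and 448 genes were called, against 853. S1pr1 was -1.99 for Treg against B cells (call lost), and exercise gave Ccr7 0.047 and 0 called genes in CD8 T cells and S1pr1 -0.10 in NK cells. Without exercise 5 and sedentary 2, the shallowest libraries (chosen after seeing the data), exercise gave Klf2 0.24, Ccr7 0.57, Itgae 0.40, Cd69 0.34 and 0 called genes in CD8 T cells, and the subsets gave 98 called genes and Cd69 1.31 (call lost). Differences of exercise and sedentary shares of cells, in percentage points, turned for Ccr7 in CD8 T cells (-0.046 at 2000 UMIs, -0.71 unthinned), Klf2 in NK cells (-8.42 and -8.78), Cd69 in NK cells (1.07 and 1.26) and Itgae in Treg cells (0.492 at 2000 UMIs).

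Leaving out 1 library at a time, the ranges for exercise in CD8 T cells were -0.45 to 0.13 for Klf2, -0.79 to 0.68 for Ccr7, -1.35 to 2.21 for Itgae, -0.46 to 0.31 for Cd69 and 0 to 1 called genes. In Treg cells they were -0.28 to 0.30 for Klf2, -1.35 to 0.35 for Itgae and 0 to 11 called genes, in NK cells -0.25 to 0.53 for Cd69 and 0 to 1 called genes, and in B cells -0.43 to 1.78 for S1pr1 and -0.79 to 0.43 for Klf2. In the whole tumour they were -0.45 to 0.21 for S1pr1, -0.23 to 0.13 for Klf2, -0.11 to 1.17 for Ccr7, -0.26 to 0.66 for Itgae and -0.50 to 0.54 for Cd69. For CD8 T against Treg cells the ranges were -1.80 to -1.26 for S1pr1, -0.32 to 0.27 for Ccr7 and -0.24 to 0.39 for Cd69. For CD8 T against NK cells Cd69 ranged from -0.086 to 0.48, and for Treg against NK cells Klf2 from -0.85 to -0.40. Against B cells Ccr7 in CD8 T cells ranged from -2.77 to -1.62, S1pr1 in Treg cells from -2.09 to -1.09, and Cd69 from -0.26 to 1.98 in CD8 T, -0.33 to 2.10 in Treg and -0.43 to 1.95 in NK cells. The CD8 T subsets gave 157 to 346 called genes and 0.88 to 1.43 for Cd69. Shares ranged, in percentage points, from -1.22 to 0.430 for Klf2 and -0.067 to 0.456 for Ccr7 in CD8 T cells, -6.14 to 1.96 for Itgae in Treg cells, -3.99 to 5.10 for Klf2 and -1.47 to 1.38 for Cd69 in NK cells, and -1.12 to 11.9 for Klf2 in B cells.

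Of 313 alternative values for the 5 genes between kinds of cells, 272 kept direction and side of the threshold, as did 165 of 211 for exercise. The B cell fit limited to libraries with at least 10 cells could not be fitted, and with stricter gates S1pr1 (exercise, CD8 T cells), Cd69 (exercise, NK cells) and Klf2 and Cd69 (CD8 T subsets) fell under the filter. Depth limits all of this: Ccr7 and Itgae gave 8 or fewer UMIs in several gates, and the B gate held as few as 4 cells in a library.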
